A study of Mus musculus with 18 samples.

Results

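The Hox genes of paralog groups 6 to 8 were followed in heart, kidney and tail fibroblasts of adult mice, before and after transplantation under the kidney capsule. The 8 genes are Hoxa6 and Hoxa7 of the a cluster, Hoxb6, Hoxb7 and Hoxb8 of the b cluster, Hoxc6 and Hoxc8 of the c cluster and Hoxd8 of the d cluster. They were chosen by name and matched by symbol to 8 of the 38924 gene rows of the count table. The table holds 38 Hox genes in all, 14 of paralog groups 1 to 5 and 16 of groups 9 to 13. In the GRCm38 annotation of GENCODE release M21, Hoxa6 (ENSMUSG00000043219) at chr6:52206288-52208722 and Hoxa7 (ENSMUSG00000038236) at chr6:52214491-52221854 lie on the minus strand, and Hoxb8 (ENSMUSG00000056648) at chr11:96281905-96285315, Hoxb7 (ENSMUSG00000038721) at chr11:96286623-96290162 and Hoxb6 (ENSMUSG00000000690) at chr11:96292476-96301569 on the plus strand. Also on the plus strand are Hoxc8 (ENSMUSG00000001657) at chr15:102990607-102994111, Hoxc6 (ENSMUSG00000001661) at chr15:102998257-103011881 and Hoxd8 (ENSMUSG00000027102) at chr2:74704615-74707933.

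Hox genes encode transcription factors that bind DNA through a homeodomain and give cells along the head-to-tail axis of the embryo their regional identity. They lie in 4 clusters, and members of different clusters that descend from the same ancestral gene form a paralog group. Within a cluster, genes at the 3′ end are switched on earlier and further towards the head than those at the 5′ end, and the central groups 6 to 8 are best known for patterning the thoracic region of the trunk. Hoxc6 and Hoxc8 act in the thoracic skeleton and spinal cord, Hoxb8 in spinal sensory circuits and blood progenitors, and Hoxa7 and Hoxb7 have overlapping roles in the upper rib cage. Adult fibroblasts of many organs still express Hox genes according to body position.

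The cells came from male Rosa mT/mG mice of a C57BL/6 background, 10 weeks old, in which the TdTomato reporter is expressed ubiquitously, so that the reporter marks donor origin and not a cell type. Fibroblasts of the heart (HF), kidney (KF) and tail (TF) were cultured for 10 days. Some were then placed in gelatin foam under the kidney capsule of C57bl6/j recipients aged 10 to 11 weeks and recovered 3 days later by sorting for CD45−;TdTomato+ cells (HFs, KFs and TFs), and cells left over were replated as cultured controls (HFc, KFc and TFc). No gene was deleted in any group, and all 6 groups share the donor genotype and the first culture. Each group had 3 bulk RNA-seq libraries, which the paper calls biological replicates. No source names the animals or cultures behind a library. The p-values measure the spread between these libraries, and whether each came from a separate animal is not stated.

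Library totals lay between 17927838 and 32245168 counts. The floor of 3 counts corresponded to between 0.0890 and 0.180 CPM, where CPM is the usual depth-scaled count, with library totals adjusted by edgeR's TMM method. Floors and counting intervals cover counting error only. The 9 fibroblast markers summed to at least 15281 CPM in each library, the heart marker Tbx20 was at 372.5 CPM or more in HF libraries and at most 0.526 CPM elsewhere, and the tail markers Hoxb13 and Hoxc13 summed to at least 38.6 CPM in TF libraries and at most 13.03 CPM elsewhere. The kidney markers Pax8 and Foxd1 summed to between 17.9 and 20.8 CPM in KFc and at most 0.846 CPM in HFc and TFc. They did not separate KFs from HFs. Their sum was 7.03, 4.04 and 110.2 CPM in KFs replicates 1 to 3 and 4.23 CPM in HFs replicate 2. KFs replicate 3 stood apart. Its library was named Kidney-Fibros, unlike the others, whose names give an organ letter and a number. It held 37208 counts of Xist, the RNA of the inactive X chromosome of females, against at most 10 in every other library, and 18 counts of the Y-linked gene Uty, although the donors were male. Its sum of 5 markers of renal epithelium was 176.8 CPM, against 15.4 and 8.30 CPM in KFs replicates 1 and 2, and the leukocyte list summed to 11.5 CPM, against 126 and 110.1 CPM. Its 9 fibroblast markers summed to 19722 CPM, against 94971 CPM in the highest KFs library. For the 8 genes, the calls that rest on KFs are therefore given with and without it, and so are the related genes called in KFs. Likeness over the 18 libraries is given with it alone.

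The coding sequences of the genes are alike in the homeobox, the stretch of 60 codons that encodes the homeodomain. The homeoboxes of the 3 genes of paralog group 8 are shown because Hoxd8 differed from the other genes of the set in the order of its levels among organs. They were read 5′ to 3′ from GENCODE transcripts on GRCm38, at chr11:96284174-96284353 for Hoxb8, chr15:102992571-102992750 for Hoxc8 and chr2:74706525-74706704 for Hoxd8, all on the plus strand and each within a single coding exon. Capitals mark positions at which the 3 sequences are not all the same.
Hoxb8: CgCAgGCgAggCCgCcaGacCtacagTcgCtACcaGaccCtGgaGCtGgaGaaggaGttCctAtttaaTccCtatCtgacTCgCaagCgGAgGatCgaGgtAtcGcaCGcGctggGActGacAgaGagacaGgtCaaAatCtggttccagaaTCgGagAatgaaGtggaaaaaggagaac
Hoxc8: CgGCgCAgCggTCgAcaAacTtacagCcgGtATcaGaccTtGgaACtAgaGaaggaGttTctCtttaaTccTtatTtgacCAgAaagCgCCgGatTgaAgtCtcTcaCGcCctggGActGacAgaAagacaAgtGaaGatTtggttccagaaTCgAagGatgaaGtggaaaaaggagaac
Hoxd8: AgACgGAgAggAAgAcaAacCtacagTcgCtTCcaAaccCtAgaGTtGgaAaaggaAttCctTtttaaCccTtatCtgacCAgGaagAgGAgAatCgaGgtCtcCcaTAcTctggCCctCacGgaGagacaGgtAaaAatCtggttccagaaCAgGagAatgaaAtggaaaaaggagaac

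The 3 homeoboxes differ at 56 of 180 positions, of which 42 are at the last position of a codon. Hoxb8 shares 80.6% of its homeobox bases with Hoxd8 and 80.0% with Hoxc8, and Hoxc8 shares 73.3% with Hoxd8. Over all pairs of the 8 genes, identity lay between 67.8% (Hoxa7 and Hoxc8, and Hoxc6 and Hoxc8) and 88.9% (Hoxa6 and Hoxa7, and Hoxb6 and Hoxb7). The longest identical run in any pair was 47 bases, shorter than the reads of 75 bases. No 75-base window of any of the 8 genes' transcripts was found in a transcript of another gene in GENCODE release M21. Exons of Hoxa7 share 586 of their 2876 bases with Hoxaas3 on the opposite strand, and the reads were counted by strand.

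Promoter sequence was given for 4 of the 8 genes, Hoxa6, Hoxa7, Hoxb8 and Hoxd8. The 250 bases before the RefSeq start of Hoxb8 (chr11:96281655-96281904) and Hoxd8 (chr2:74704365-74704614), both on the plus strand of GRCm38.p6, are shown because these paralogs differed in the order of heart and tail fibroblasts in culture, while both were higher in KFc than in TFc. Capitals mark matches on either strand to TTTATG, bound by CDX factors, TGATNNAT, bound by Hox-Pbx pairs, AGGTCA, the half-site of retinoic acid receptors, or TATAAA, the TATA box.
Hoxb8: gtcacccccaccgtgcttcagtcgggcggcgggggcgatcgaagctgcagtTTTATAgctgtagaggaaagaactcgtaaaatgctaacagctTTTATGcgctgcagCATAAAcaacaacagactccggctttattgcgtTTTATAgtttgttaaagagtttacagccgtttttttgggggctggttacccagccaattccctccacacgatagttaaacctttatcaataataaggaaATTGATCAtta
Hoxd8: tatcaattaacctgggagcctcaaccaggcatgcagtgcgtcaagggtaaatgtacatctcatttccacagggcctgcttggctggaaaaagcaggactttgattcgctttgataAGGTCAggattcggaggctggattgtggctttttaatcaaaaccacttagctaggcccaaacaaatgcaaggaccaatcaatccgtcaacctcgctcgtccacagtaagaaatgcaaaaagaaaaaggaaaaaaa

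The Hoxb8 window held 2 matches to TTTATG, 1 to TGATNNAT and 2 to TATAAA, and the Hoxd8 window held 1 match to AGGTCA. Of the 32851 promoter windows of this length, 10.8% held TTTATG, 7.7% TGATNNAT, 14.0% AGGTCA and 12.4% TATAAA. Both windows had 44.4% G and C, against a median of 52.4% over all windows, and 12 CpG dinucleotides in Hoxb8 and 6 in Hoxd8, against a median of 6. The Hoxa7 window held 2 matches to TTTATG and the Hoxa6 window held no match to the 4 motifs. Of their 250 bases, 78 in the Hoxa7 window and 50 in the Hoxa6 window lay in annotated exons of the same gene. The matches did not overlap each other. The CDX genes Cdx2 and Cdx4 had no count in any of the 18 libraries. Cdx1, also a CDX gene, did not pass the filter on low counts and was not tested.

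In culture, kidney fibroblasts had the most RNA of 7 of the 8 genes, tail fibroblasts less and heart fibroblasts almost none, whereas Hoxd8 was expressed in heart and kidney fibroblasts and was close to the floor in tail fibroblasts. Of the c cluster, Hoxc8 had 77.0, 76.3 and 74.2 CPM in KFc replicates 1 to 3, 4.24, 3.57 and 3.68 CPM in TFc, and no count in any HFc library. Hoxc6 had 57.7, 53.9 and 53.6 CPM in KFc, 8.01, 7.38 and 7.41 CPM in TFc and 0.182, 0.0339 and 0 CPM in HFc. The 3 organs did not overlap for either gene.

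Of the a cluster, Hoxa7 had 29.9, 27.3 and 26.9 CPM in KFc, 4.48, 4.36 and 4.34 CPM in TFc and 0.109, 0.102 and 0.246 CPM in HFc. Hoxa6 had 11.4, 11.2 and 11.8 CPM in KFc and 1.25, 1.61 and 1.75 CPM in TFc, and a single count among the 3 HFc libraries. The order kidney, tail, heart was the same for both.

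The b cluster had the smallest distance between kidney and tail. Hoxb6 had 23.4, 20.4 and 20.2 CPM in KFc, 14.01, 15.0 and 14.8 CPM in TFc and 0.328, 0.338 and 0.295 CPM in HFc. Hoxb7 had 18.6, 16.1 and 16.1 CPM in KFc, 5.91, 6.71 and 7.02 CPM in TFc, and 4, 0 and 2 counts in HFc. Hoxb8 had 13.8, 13.7 and 13.7 CPM in KFc, 4.15, 4.28 and 6.09 CPM in TFc, and 1, 0 and 1 counts in HFc. Hoxb6 was the gene of the set with the highest mean level in TFc and, apart from Hoxd8, in HFc.

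Hoxd8, the d cluster member, differed from the others in the order of heart and tail. It had 2.22, 1.35 and 1.47 CPM in HFc (61, 40 and 30 counts), 1.83, 2.16 and 1.89 CPM in KFc, and 0, 6 and 3 counts in TFc. HFc and KFc overlapped and TFc lay below both.

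**Figure D1:**
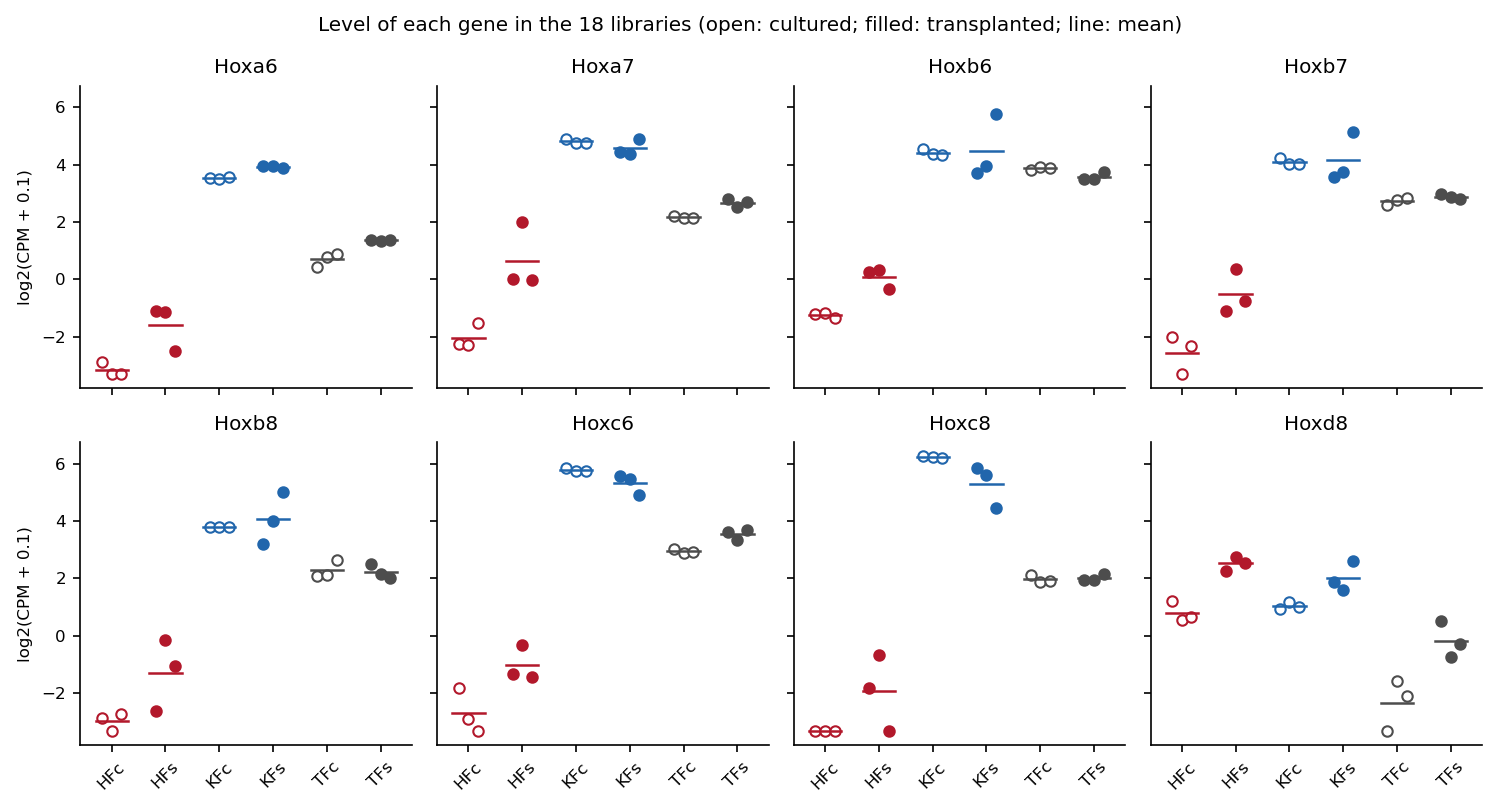
Level of each of the 8 genes in every library, as log2(CPM + 0.1), with open points for cultured cells, filled points for transplanted cells and a line at the mean of 3 libraries. For 7 genes the heart libraries lie lowest, and for all of these but Hoxb6 the kidney libraries lie highest. For Hoxb6, KFs replicate 1 lies below the TFc libraries. For Hoxd8 the heart and kidney libraries lie above the cultured tail libraries. KFs replicate 3 is the highest KFs library for the 3 Hoxb genes and the lowest for Hoxc6 and Hoxc8.

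Divided by exon length, levels can be set side by side between genes. In KFc the order of the mean level in CPM per kb was Hoxc8 (26.8 ± 0.509, SD, n = 3), Hoxc6 (22.9 ± 0.946), Hoxa6 (13.1 ± 0.371), Hoxb7 (11.0 ± 0.944), Hoxb6 (10.9 ± 0.899), Hoxa7 (9.74 ± 0.584), Hoxb8 (5.20 ± 0.0283) and Hoxd8 (0.715 ± 0.0650), and Hoxb7 and Hoxb6 did not differ beyond their spread. In TFc the b cluster led, with Hoxb6 at 7.44 ± 0.275 and Hoxb7 at 4.24 ± 0.371 CPM per kb, followed by Hoxc6 at 3.16 ± 0.149, and Hoxb8, Hoxa6, Hoxa7 and Hoxc8 lay between 1.84 and 1.35, of which Hoxb8, Hoxa6 and Hoxa7 did not differ beyond their spread. In HFc Hoxd8 led with 0.613 ± 0.171 CPM per kb, followed by Hoxb6 with 0.163 ± 0.0116, and the other 6 genes were at 0.0529 or less. The SDs of the genes near the floor rest on a few counts. After transplantation the first 5 genes in KFs, Hoxa6 (17.4 ± 0.465 CPM per kb), Hoxc6 (17.0 ± 3.89), Hoxc8 (15.1 ± 6.54), Hoxb6 (14.2 ± 12.02) and Hoxb7, lay within their spread. That overlap rests on KFs replicate 3. The mean of replicates 1 and 2 was 19.2 CPM per kb for Hoxc6, 18.7 for Hoxc8 and 17.6 for Hoxa6, against 8.10 for Hoxb7, 7.31 for Hoxa7 and 7.25 for Hoxb6, and the first 3 did not overlap the last 3 in those libraries. In TFs Hoxb6 (6.02 ± 0.618 CPM per kb) again led, followed by Hoxc6 (4.86 ± 0.621) and Hoxb7 (4.71 ± 0.272), which did not differ beyond their spread. In HFs Hoxd8 (2.08 ± 0.359 CPM per kb) led and the other 7 genes were at 0.655 or less.

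Kidney and tail fibroblasts in culture were compared first, to ask how the organs differ in their positional code. Of the 8 genes, 7 were higher in KFc than in TFc, against 17.8% of all 16577 genes tested that were called higher (edgeR's quasi-likelihood test, Benjamini-Hochberg adjusted p below 0.05). The median log2 fold change of the 8 genes was 2.76, against -0.04 over all genes tested. Hoxc8 was 19.8-fold higher by the ratio of mean CPM (log2 fold change 4.30, SE 0.39, adjusted p = 1.95e-06), Hoxa6 7.47-fold (2.90, SE 0.29, adjusted p = 1.53e-06), Hoxc6 7.24-fold (2.85, SE 0.24, adjusted p = 3.87e-07) and Hoxa7 6.38-fold (2.67, SE 0.37, adjusted p = 5.24e-05). Hoxb8 was 2.83-fold higher (1.50, SE 0.42, adjusted p = 0.0110) and Hoxb7 2.59-fold (1.37, SE 0.39, adjusted p = 0.0121). Hoxd8 was 16.04-fold higher in KFc, with 9 counts in all in TFc (4.05, SE 0.62, adjusted p = 1.23e-04). Hoxb6 had a log2 fold change of 0.55 (SE 0.37, adjusted p = 0.273) and did not pass the test. Its groups did not overlap, as was so for 59.7% of all genes tested. In the fit without KFs replicate 3, which shares its estimate of the spread with all groups, Hoxb6 passed (0.57, adjusted p = 0.00180) and all 8 genes were called higher. The 5 markers of renal epithelium summed to between 31.0 and 37.0 CPM in KFc, each with more than 3 counts in every library, and to between 0.0392 and 0.119 CPM in TFc, where none had. The leukocyte list summed to between 359.1 and 374.4 CPM in KFc and between 158.9 and 187.4 CPM in TFc. The part of such RNA in the difference was not tested.

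Heart fibroblasts had less RNA of 7 of the genes than tail fibroblasts in culture, against 21.0% of all genes called lower, and more of Hoxd8, against 20.9% called higher. Of the 7, Hoxa6, Hoxb7, Hoxb8, Hoxc6 and Hoxc8 passed the filter on low counts only through KF and TF libraries, where they were high, so they had to differ and their number is no support. Hoxd8 was 13.8-fold higher in HFc than in TFc (log2 fold change 3.83, SE 0.62, adjusted p = 1.41e-04). Hoxb6 was 45.6-fold lower (-5.48, SE 0.52, adjusted p = 6.47e-07), Hoxa7 28.9-fold (-4.89, SE 0.55, adjusted p = 3.46e-06), Hoxb7 80.5-fold (-6.30, SE 0.63, adjusted p = 1.03e-06) and Hoxc6 105.6-fold (-6.53, SE 0.42, adjusted p = 8.67e-09). The sizes for Hoxb7 and Hoxc6 rest on 6 counts each in HFc. With each HFc library left out in turn, the ratio for Hoxb7 lay between 53.6 and 133.2 and that for Hoxc6 between 70.4 and 449.1, both highest without HFc replicate 1. For Hoxa6 and Hoxb8 the size is known no better. From 123 counts in TFc against 1 in HFc, Hoxa6 was 116-fold lower with a 95% counting interval of 20.4 to 4620, and from 388 against 2 counts, Hoxb8 was 183-fold lower with an interval of 50.3 to 1520 (exact intervals). Hoxc8, with no count in HFc, was at least 32.1-fold lower, taking the floor of 3 counts in each library.

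Between heart and kidney fibroblasts in culture, the same 7 genes were lower in HFc than in KFc, against 14.0% of all genes called lower, and the same 5 of them passed the filter only where they were high. The 3 comparisons of cultured cells share their libraries. Hoxb6 was 66.6-fold lower (log2 fold change -6.03, SE 0.53, adjusted p = 5.21e-07) and Hoxc6 764.2-fold (-9.39, SE 0.40, adjusted p = 2.33e-10), a ratio that lay between 509.5 and 3251 with each HFc library left out in turn, highest without replicate 1. Hoxc8 was at least 634.9-fold lower. Hoxd8 differed by -0.22 (SE 0.48, adjusted p = 0.781), less than the spread between libraries.

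After transplantation the mean levels of the 7 genes other than Hoxd8 were again highest in kidney and lowest in heart fibroblasts. In HFs against TFs, 7 genes were lower, against 12.7% of all genes called lower, and Hoxd8 was higher, against 10.3% called higher. Of the 7, Hoxa6, Hoxb7, Hoxb8, Hoxc6 and Hoxc8 passed the filter on low counts only through KF and TF libraries, where they were high. The number of genes lower in HFs is therefore no support, here or against KFs. The 7 log2 fold changes lay between -1.72 (Hoxa7, SE 0.39, adjusted p = 0.00481) and -4.76 (Hoxc6, SE 0.33, adjusted p = 6.98e-08), and Hoxd8 was 6.69-fold higher in HFs (2.75, SE 0.51, adjusted p = 0.00109). In KFs against TFs, all 8 genes were higher, against 15.3% of all genes, from 1.23 for Hoxb6 (SE 0.38, adjusted p = 0.0229) to 3.43 for Hoxc8 (SE 0.38, adjusted p = 2.51e-05). In HFs against KFs, 7 were lower, against 19.0% of all genes, from -3.65 for Hoxa7 (SE 0.40, adjusted p = 1.05e-05) to -7.51 for Hoxc8 (SE 0.53, adjusted p = 5.37e-07), and Hoxd8 differed by 0.45 (SE 0.46, adjusted p = 0.489). Without KFs replicate 3, Hoxb6 no longer passed in KFs against TFs (0.27, adjusted p = 0.167), and the other 7 did. In HFs against KFs the same 7 genes were called without it, from -3.44 for Hoxa7 (adjusted p = 5.48e-06) to -7.81 for Hoxc8 (adjusted p = 2.38e-09), and Hoxd8 was at 0.83 (adjusted p = 0.172).

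**Figure D2:**
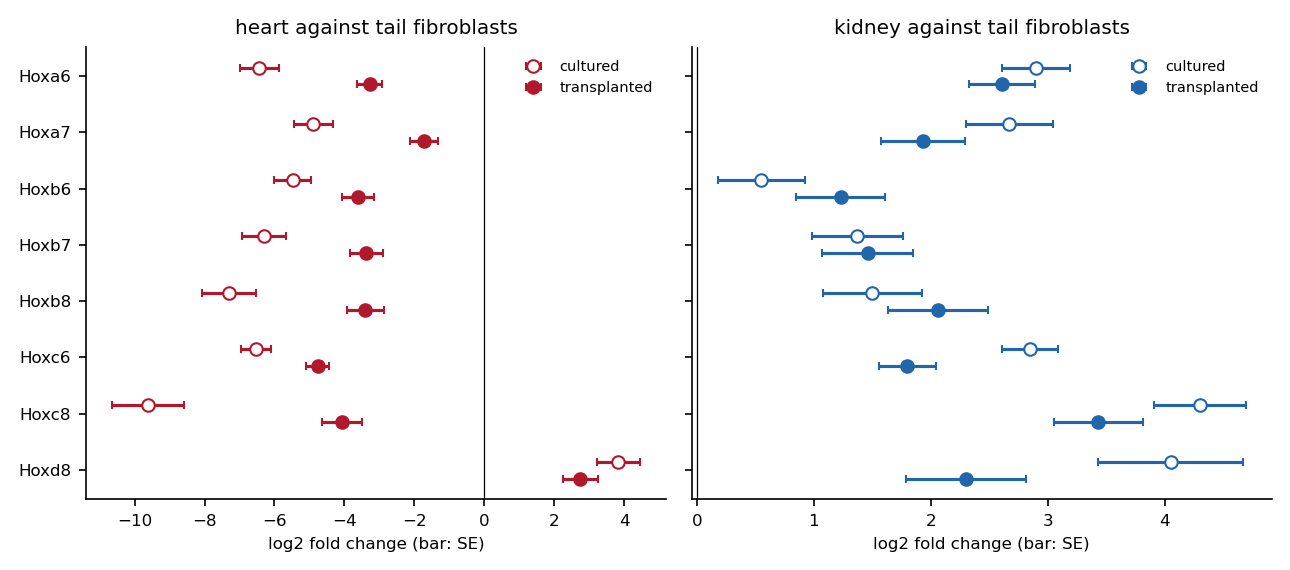
Log2 fold change of each gene in heart (left) and kidney (right) fibroblasts against tail fibroblasts, in culture (open) and after transplantation (filled), with bars of 1 SE. In heart fibroblasts Hoxd8 alone lies to the right of 0 in both states, and the other 7 genes lie nearer to 0 after transplantation than in culture.

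The transplanted cells were next compared with their cultured controls. In heart fibroblasts, Hoxa7, Hoxb6 and Hoxd8 passed the filter on low counts within the HF libraries, and all 3 were called higher (adjusted p below 0.05 and a log2 fold change above 1), against 18.3% of all 16577 genes tested. The other 5 genes entered the test through the KF and TF libraries, where they are high, and their values in heart fibroblasts are a description. For the genes other than Hoxd8 the difference was between a few counts and a few more. HFc and HFs held 1, 0 and 0 against 6, 8 and 2 counts of Hoxa6 and 3, 3 and 5 against 15, 88 and 23 counts of Hoxa7. The counts of Hoxb6 were 9, 10 and 6 in HFc and 18, 26 and 18 in HFs. HFs replicate 2 had the highest CPM of both Hoxa7 and Hoxb6, and neither gene's groups overlapped, as was so for 67.3% of all genes.

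Hoxb7 had 4, 0 and 2 counts in HFc and 6, 27 and 13 in HFs, and Hoxb8 had 1, 0 and 1 against 1, 18 and 10. Hoxc6 had 5, 1 and 0 counts against 5, 16 and 7. Hoxc8 had none in HFc and 3, 12 and 0 in HFs, so that it was detectable above the floor in HFs replicate 2 alone and its groups overlapped. Hoxd8 had the most counts in both groups, with 61, 40 and 30 counts in HFc and 78, 151 and 152 in HFs, or 2.22, 1.35 and 1.47 CPM against 4.69, 6.65 and 5.77 CPM.

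By the ratio of mean CPM, Hoxd8 rose 3.39-fold (1.76 on the log2 scale, SE 0.48, adjusted p = 0.00571), Hoxb6 3.03-fold (1.55, SE 0.61, adjusted p = 0.0407) and Hoxa7 12.4-fold (3.68, SE 0.58, adjusted p = 7.18e-05). The size for Hoxa7 rests on HFs replicate 2, without which it was 5.83-fold (2.64, adjusted p = 1.03e-05). Hoxb6 was called in 1 of the 6 fits that each left out an HF library, that without HFs replicate 3 (adjusted p = 0.0324), and in the other 5 its adjusted p lay between 0.0686 and 0.0963. With library size alone in place of TMM, Hoxb6 did not pass either (1.50, adjusted p = 0.0668). In the fit without KFs replicate 3, which shares its estimate of the spread with all groups, Hoxb6 was called (1.57, adjusted p = 4.29e-05). Hoxb7 was 8.38-fold higher (3.08, SE 0.76, adjusted p = 0.00292) and Hoxc6 5.89-fold (2.39, SE 0.62, adjusted p = 0.00395). Without HFs replicate 2 these ratios were 5.25 and 3.93, and without HFc replicate 1 they were 13.9 and 25.05. Hoxa6 was 18.8-fold higher from 16 against 1 counts, with a 95% counting interval of 2.93 to 790 (log2 fold change 3.84, SE 0.72, adjusted p = 3.26e-04), and Hoxb8 17.1-fold from 29 against 2 counts, with an interval of 4.32 to 148 (3.82, SE 1.01, adjusted p = 0.00453). Hoxc8 passed the fitted test (adjusted p = 0.0211), but its lower bound against the floor, 1.98-fold, was under the fold-change limit, and without HFs replicate 2 it did not pass (adjusted p = 0.152), so no rise is given for it. In a fit of the HF libraries alone, Hoxa7, Hoxb6 and Hoxd8 were tested and called.

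The summed level of the 7 genes other than Hoxd8 was 3.25, 8.59 and 2.77 CPM in HFs replicates 1 to 3 and between 0.474 and 0.838 CPM in HFc. Markers of the host organ rose beside them. All 12 proximal tubule markers were above 3 counts in each HFs library, against 5 in each HFc library, and their sum was 153.7, 1197 and 87.7 CPM in HFs replicates 1 to 3, against 23.3 to 27.2 CPM in HFc. Kap and Slc34a1, defining markers of proximal tubule, were at 0 in HFc, and Kap had 6721 counts in HFs replicate 2, the library with the highest sum of the 7 genes. The 5 markers of renal epithelium summed to between 3.31 and 28.2 CPM in HFs and at most 0.295 CPM in HFc, and the 6 leukocyte markers to between 81.2 and 152.4 CPM in HFs and 74.1 to 86.3 CPM in HFc. The part of such RNA in the levels of the 7 genes in HFs was not tested. In bulk samples, a change in the share of cells that express a gene and a change in RNA per cell cannot be told apart.

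**Figure D3:**
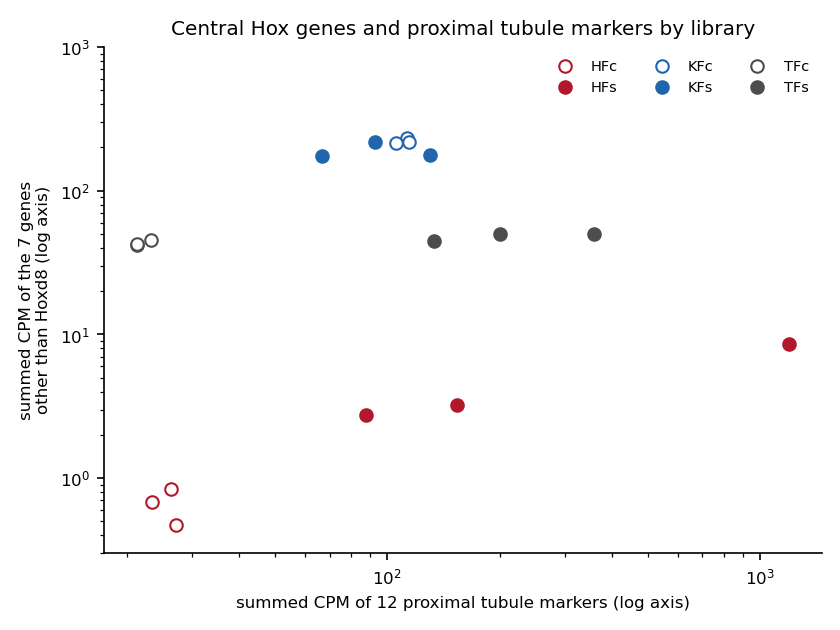
Summed CPM of the 7 genes other than Hoxd8 against the summed CPM of 12 proximal tubule markers in each of the 18 libraries, both on log axes, open for cultured and filled for transplanted cells. The 3 HFs libraries lie above and to the right of the HFc libraries, with HFs replicate 2 highest on both axes among heart libraries. The TFs libraries, at 133.8 to 359.3 CPM of tubule markers, lie close to TFc in the summed level of the 7 genes. That level is 42.1 to 45.1 CPM in TFc, 44.5 to 50.0 CPM in TFs and at most 0.838 CPM in HFc. On a log axis an equal difference in CPM is a smaller step from the TFc level than from the HFc level. The part of host RNA in these levels was not tested.

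In tail fibroblasts the same tubule markers rose, from between 21.3 and 23.2 CPM in TFc to between 133.8 and 359.3 CPM in TFs, and the summed level of the 7 genes lay between 42.1 and 45.1 CPM in TFc and between 44.5 and 50.0 CPM in TFs. Hoxd8 was the 1 gene of the 8 that rose, against 11.0% of all genes called higher, from 0, 6 and 3 counts in TFc to 25, 11 and 17 in TFs (log2 fold change 2.84, SE 0.64, adjusted p = 0.00276, 6.97-fold by mean CPM). It was called under each replicate left out in turn. Hoxc6 was at 8.01, 7.38 and 7.41 CPM in TFc and 12.4, 10.0 and 12.8 CPM in TFs, a log2 fold change of 0.62 (SE 0.24, adjusted p = 0.0494) that was under the fold-change limit of 1. Hoxa6 had 1.25, 1.61 and 1.75 CPM in TFc and 2.52, 2.41 and 2.50 CPM in TFs (0.69, SE 0.28, adjusted p = 0.0647). The groups of both genes did not overlap. Groups without overlap were found for 5 of the 8 genes and for 60.4% of all genes tested.

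The other 5 genes differed between TFs and TFc by between -0.30 (Hoxb6, SE 0.38, adjusted p = 0.551) and 0.51 (Hoxa7, SE 0.37, adjusted p = 0.283) on the log2 scale. Hoxb6 went from 14.01, 15.0 and 14.8 CPM to 11.1, 11.1 and 13.2 CPM, and Hoxa7 from 4.48, 4.36 and 4.34 CPM to 6.90, 5.63 and 6.32 CPM. Neither difference passed the test. The sign for Hoxb8 (-0.07) and Hoxc8 (0.05) changed when single libraries were left out. Over all 8 genes the median was 0.33, against 0 over all genes tested.

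In kidney fibroblasts none of the 8 genes was called by edgeR, against 14.7% of all genes called higher and 7.99% called lower, although 2 were below 0.05 before adjustment, Hoxc8 with an unadjusted value of 0.0275 and Hoxd8 with 0.0350. With DESeq2, 1 gene was called, Hoxd8. Hoxd8 had 1.83, 2.16 and 1.89 CPM in KFc and 3.56, 2.95 and 6.05 CPM in KFs, with no overlap (log2 fold change 1.09, SE 0.47, adjusted p = 0.0680). Hoxc8 had 77.0, 76.3 and 74.2 CPM in KFc and 57.7, 48.4 and 22.0 CPM in KFs (-0.83, SE 0.33, adjusted p = 0.0553), and Hoxc6 had 57.7, 53.9 and 53.6 CPM against 47.8, 44.5 and 30.2 CPM (-0.43, SE 0.23, adjusted p = 0.127). Both c cluster genes were lower in every KFs library than in every KFc library. Hoxa6 had 11.4, 11.2 and 11.8 CPM in KFc and 15.5, 15.3 and 14.7 CPM in KFs (0.40, SE 0.26, adjusted p = 0.209). The groups of 4 of the 8 genes did not overlap, against 51.2% of all genes tested.

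The 3 b cluster genes and Hoxa7 depended on KFs replicate 3. Hoxb6 had 12.98, 15.5 and 55.1 CPM in KFs replicates 1 to 3, Hoxb7 had 11.7, 13.3 and 35.2 CPM and Hoxb8 had 9.22, 16.2 and 32.2 CPM, so that replicate 3 was the only KFs library above KFc for Hoxb6 and Hoxb7. With all libraries the log2 fold changes against KFc were 0.38 for Hoxb6 (SE 0.37, adjusted p = 0.412), 0.24 for Hoxb7 (SE 0.38, adjusted p = 0.621) and 0.49 for Hoxb8 (SE 0.40, adjusted p = 0.339). Without KFs replicate 3 all 3 were below 0, at -0.62 for Hoxb6 (adjusted p = 0.00194, under the fold-change limit), -0.48 for Hoxb7 (adjusted p = 0.153) and -0.15 for Hoxb8 (adjusted p = 0.727). Hoxa7 had 21.5, 20.5 and 30.1 CPM in KFs and went from -0.22 (SE 0.34, adjusted p = 0.617) to -0.46 (adjusted p = 0.272). Hoxc8 went from -0.83 to -0.56 (adjusted p = 0.0496) and Hoxd8 from 1.09 to 0.68 (adjusted p = 0.225). Hoxa6 went from 0.40 to 0.38 (adjusted p = 0.219) and Hoxc6 from -0.43 to -0.30 (adjusted p = 0.189). No gene was called without this library either.

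**Figure D4:**
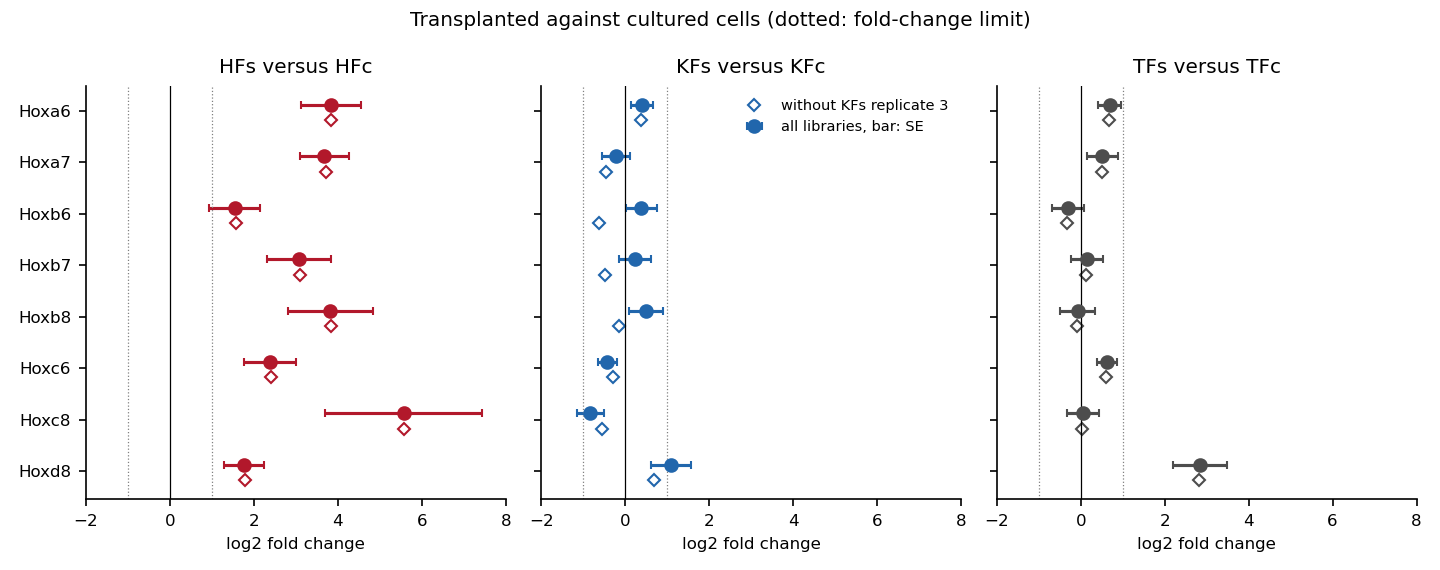
Log2 fold change of each gene in transplanted against cultured cells of the heart, kidney and tail, with all libraries (filled circles, bars of 1 SE) and without KFs replicate 3 (open diamonds), and dotted lines at the fold-change limit of 1. In heart fibroblasts the fitted values of all 8 genes lie beyond the limit, that of Hoxc8 without a count in HFc and so with no known size, in tail fibroblasts Hoxd8 alone does, and in kidney fibroblasts the 3 Hoxb genes change side when the replicate is left out.

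The deviation of KFs replicate 3 ran along the b and c clusters. Relative to the KFc mean, its log2 level was 1.37 for Hoxb6, 1.05 for Hoxb7 and 1.23 for Hoxb8, and -0.87 for Hoxc6 and -1.78 for Hoxc8. The summed level of the 2 Hoxc genes over that of the 3 Hoxb genes was 0.426 in this library, 3.11 and 2.07 in KFs replicates 1 and 2, and between 2.41 and 2.59 in KFc. The same held for other genes of the b and c clusters, and not throughout the a and d clusters. Among Hox genes with at least 10 counts on average over the KF libraries, replicate 3 was above both other KFs libraries for 8 of 8 Hoxb genes and below both for 8 of 8 Hoxc genes. Of the 10 Hoxa genes, it was above both for 3, below both for 5 and between them for 2. Of the 5 Hoxd genes, it was above both for 3, Hoxd8 among them, and between them for 2. This is a description of a single library, whose sex-linked RNA went against the donors and whose renal epithelial markers were highest.

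**Figure D5:**
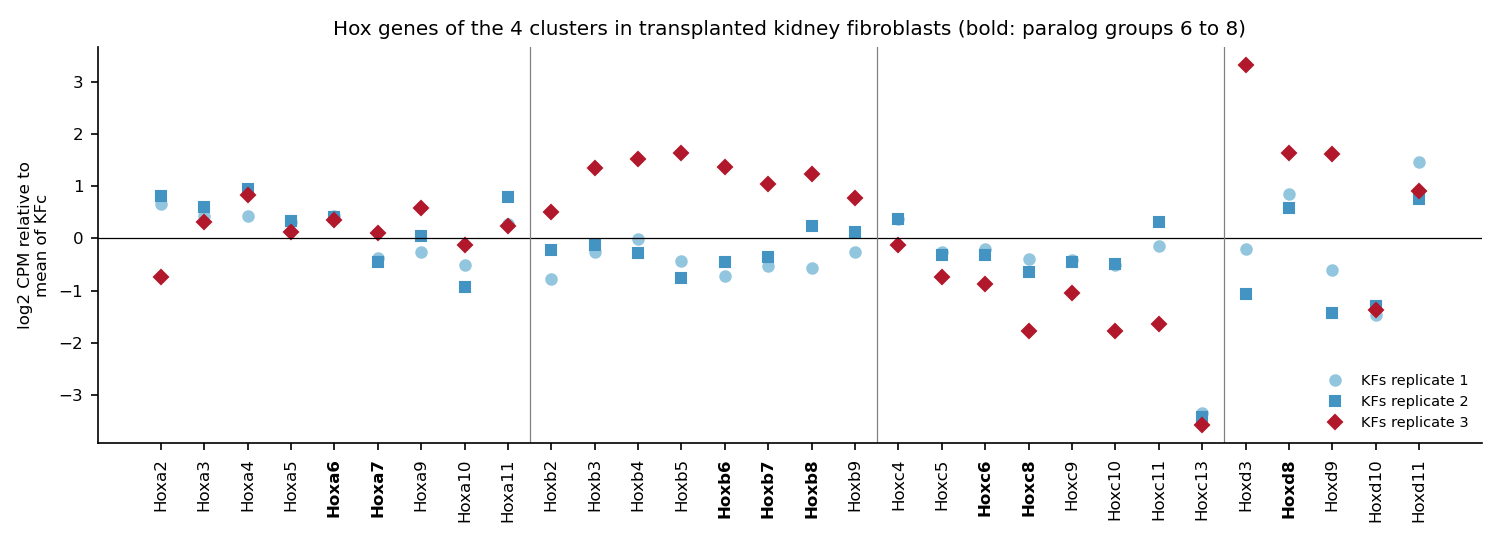
Log2 CPM of Hox genes in KFs replicates 1, 2 and 3 relative to the mean of the 3 KFc libraries, ordered along the a, b, c and d clusters, with the genes of groups 6 to 8 in bold. Replicate 3 (red diamonds) lies above the other two for all 8 Hoxb genes shown and below them for all 8 Hoxc genes shown.

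Whether transplantation had a different effect in different organs was tested as an interaction. Between heart and tail fibroblasts, 4 of the 8 genes had a larger log2 fold change in HF, against 10.1% of all genes tested. These were Hoxa7 (difference of log2 fold changes 3.17, SE 0.71, adjusted p = 0.00493), Hoxa6 (3.14, SE 0.80, adjusted p = 0.0106), Hoxb8 (3.89, SE 1.11, adjusted p = 0.0201) and Hoxb7 (2.92, SE 0.87, adjusted p = 0.0246). The difference is one of ratios, taken from HFc levels near the floor. In mean CPM, Hoxa7 went from 0.152 to 1.88 in HF and from 4.39 to 6.29 in TF. Between heart and kidney fibroblasts, 6 had a larger log2 fold change in HF, against 10.7% of all genes, with differences for 5 of them between 2.82 (Hoxc6, SE 0.66, adjusted p = 0.00532) and 3.91 (Hoxa7, SE 0.69, adjusted p = 8.50e-04). The sixth was Hoxc8 (adjusted p = 0.0209), which had no count in HFc, so that its fitted difference is no size. Hoxd8 did not pass in either, at -1.08 (SE 0.79, adjusted p = 0.355) against TF and 0.67 (SE 0.66, adjusted p = 0.510) against KF. The numbers of genes called rest on the few HF counts, and Hoxa7 alone among those genes passed the filter within the HF libraries. These numbers are therefore no support. Without HFs replicate 2 they fell to 1 (Hoxa7) and 3 (Hoxa6, Hoxa7 and Hoxc6), without HFc replicate 2 to 1 (Hoxa7) and 4 (Hoxa6, Hoxa7, Hoxc6 and Hoxc8), and without KFs replicate 3 they were 7 and 7, all but Hoxd8.

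Between kidney and tail fibroblasts, no difference in response was called by edgeR, against 4.99% of all genes called higher in KF and 6.07% called lower. The nearest was Hoxc6, at -1.05 (SE 0.33, adjusted p = 0.0508), with an unadjusted p of 0.00565. Hoxd8 was at -1.75 (SE 0.80, adjusted p = 0.179), with an unadjusted p of 0.0439, and these 2 genes were the only ones of the 8 below 0.05 before adjustment. DESeq2 called 1, Hoxc6, which also passed without KFs replicate 3 (-0.90, adjusted p = 0.0197).

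The lists of related genes are set beside the shares of all genes tested that were called, 18.3% higher and 9.33% lower in HFs, 14.7% and 7.99% in KFs, and 11.0% and 5.53% in TFs. As for the central genes, Hox genes with few counts in an organ entered the test through other libraries. Of the 14 genes of groups 1 to 5, 12 were tested. In HFs against HFc, 2 rose, with a median log2 fold change of 0.63 over the list, and those called were Hoxa4, with 27 against 3 counts or 10.6-fold (95% counting interval 3.26 to 54.6, adjusted p = 4.72e-04), and Hoxa3 (1.99, SE 0.54, adjusted p = 0.00520). In KFs, none rose by edgeR's test. In TFs, Hoxd3, with 27 against 2 counts or 17.2-fold (interval 4.33 to 149, adjusted p = 0.0439), and Hoxa5 were called higher. Of the 16 genes of groups 9 to 13, 14 were tested, and 4 rose and 1 fell in HFs, none rose and 2 fell in KFs, and 2 rose and 3 fell in TFs. Hoxa9, the neighbour of Hoxa7 in its cluster, had 47 counts in HFs and none in HFc and was at least 6.10-fold higher (adjusted p = 1.30e-04). Hoxc10, with 25 against 2 counts or 14.7-fold (interval 3.67 to 128), Hoxa10 and Hoxc9 were called beside it. In KFs Hoxc12 fell, from 38 counts to 1 or 35.9-fold (interval 6.07 to 1460, adjusted p = 9.91e-05). In TFs Hoxd11, with 26 against 1 counts or 33.2-fold (interval 5.45 to 1360, adjusted p = 0.00647), and Hoxd9, with 13 against 2 counts or 8.29-fold (interval 1.88 to 75.7), were called higher, and Hoxc12 and Hoxb13 fell. Hoxc13, a gene of the tail end of the axis, fell in HFs (-4.33, SE 0.42, adjusted p = 6.31e-07), in KFs (-3.44, SE 0.29, adjusted p = 2.18e-07) and in TFs (-2.22, SE 0.25, adjusted p = 7.82e-06). Without KFs replicate 3, Hoxc12 and Hoxc13 were again the 2 genes of groups 9 to 13 called in KFs, Hoxc13 at -3.43 (adjusted p = 7.02e-08). In culture, 10 of 12 genes of groups 1 to 5 and 11 of 14 of groups 9 to 13 were lower in HFc than in TFc, beside 7 of the 8 central genes and against 21.0% of all genes. Those with few counts in HF libraries entered through other libraries, so these numbers are no support. In KFc against TFc, 9 of 12 genes of groups 1 to 5 were higher, against 17.8% of all genes, and 6 were higher and 6 lower, against 18.5%, among the 14 of groups 9 to 13.

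Hox proteins bind DNA with cofactors of the TALE family, all 11 of which were tested. Meis1 (log2 fold change 1.41, SE 0.21, adjusted p = 4.42e-05) and Meis2 (1.04, SE 0.14, adjusted p = 1.11e-05) rose in HFs, Pknox2 (1.64, SE 0.20, adjusted p = 1.11e-05) and Tgif2 (1.23, SE 0.25, adjusted p = 8.44e-04) rose in KFs, and Pknox2 rose in TFs (1.81, SE 0.21, adjusted p = 9.39e-06). None fell. Without KFs replicate 3, Pknox2 (1.86, adjusted p = 7.25e-09) and Tgif2 (1.11, adjusted p = 0.00271) were called in KFs, and so was Meis1 (1.08, adjusted p = 3.60e-06). Of 33 Polycomb and Trithorax group genes, which keep Hox clusters silent or active, 4 rose and 1 fell in HFs and Kdm6a alone rose in KFs (1.09), a call that ended without KFs replicate 3 (0.56, adjusted p = 8.54e-05, under the fold-change limit). In HFs, Phf19, a Polycomb accessory gene, fell (-1.95, SE 0.38, adjusted p = 4.11e-04), and Cbx7 (1.94, SE 0.68, adjusted p = 0.0240), Cbx6 (1.56, SE 0.18, adjusted p = 3.10e-06), Pcgf2 and Jarid2 rose. No gene of the list was beyond the fold-change limit and past the adjusted p in TFs. The median log2 fold change of this list was 0.19, 0.29 and 0.09 in HFs, KFs and TFs, against 0.05, 0.09 and 0 over all genes.

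Retinoic acid and its receptors act upstream of Hox genes in the embryo. Of 20 genes of axial signals, 14 were tested. In HFs 3 rose and 3 fell, in KFs 3 rose and 3 fell, and in TFs 4 rose and 3 fell. Of the 3 genes of retinoic acid synthesis, Aldh1a2 rose in TFs (5.03, SE 0.54, adjusted p = 4.51e-06). Aldh1a3 fell in HFs (-1.27, SE 0.26, adjusted p = 6.78e-04), KFs (-1.97, SE 0.26, adjusted p = 1.89e-05) and TFs (-1.67, SE 0.26, adjusted p = 1.53e-04), and Aldh1a1 fell in HFs (-2.27, SE 0.54, adjusted p = 0.00216) and KFs (-2.65, SE 0.57, adjusted p = 0.00137). Cyp26b1, which degrades retinoic acid, fell in KFs (-4.58, SE 0.31, adjusted p = 2.54e-08). The retinoic acid binding protein gene Crabp2 rose in HFs (by 2.95 on the log2 scale, SE 0.49, adjusted p = 1.13e-04), KFs (3.22, SE 0.45, adjusted p = 2.90e-05) and TFs (3.90, SE 0.48, adjusted p = 1.68e-05). Crabp1, also of this kind, fell in HFs (-2.94, SE 0.70, adjusted p = 0.00216) and TFs (-1.08, SE 0.36, adjusted p = 0.0281). It rose in KFs (2.85, SE 0.68, adjusted p = 0.00270). Without KFs replicate 3 the 6 genes called in KFs stayed called, and Aldh1a2 was called lower (-1.57, adjusted p = 2.01e-04). Noncoding RNA genes of the Hox clusters numbered 15 in the table, of which 8 were tested, and 2 rose in HFs, Hoxd3os1 (2.56, SE 0.88, adjusted p = 0.0230) and Hoxb3os (2.38, SE 0.44, adjusted p = 3.03e-04), none passed in KFs and 1 fell in TFs, Hotairm1 (-1.29, SE 0.44, adjusted p = 0.0287). The precursors of the Hox cluster microRNAs Mir196a-1, Mir196a-2 and Mir196b had no count in any of the 18 libraries. Hoxaas3, which overlaps Hoxa7 on the other strand, had no count in HF libraries, 8 to 13 counts in KFc and 12 to 15 in KFs.

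As a description, the genes whose log2 CPM followed each member most closely over the 18 libraries were mostly other Hox genes. Pearson's r has no p here, because the points share organs, states and library depth. Hoxb7 and Hoxb8 were each other's nearest gene (r = 0.990), and Hoxb7 was followed by Hoxa9 and Hoxb6 (0.984 and 0.980), Hoxb8 by Hoxa9 and Hoxc4 (0.973 and 0.972). The nearest to Hoxc6 were Hoxc9 (0.994), Hoxc4 (0.986) and Hoxc5 (0.983), and to Hoxc8 Hoxc9 (0.983), Hoxa6 (0.983) and Hoxc6 (0.978). Hoxa6 had Hoxc8, Hoxc6 (0.980) and Hoxc9 (0.978), and Hoxa7 had Hoxa9 (0.972), Hoxa6 (0.970) and Hoxa3 (0.966). Hoxb6 was closest to Slc5a7, Hoxb7 (both 0.980) and Hoxa10 (0.979). Hoxd8 followed none of the other members, with r between -0.274 (Hoxb6) and 0.028 (Hoxa7), and its nearest genes were Zbtb46 (0.928), Dtx4 (0.922) and Gm38399 (0.920). The 21 pairs among the other 7 genes had r between 0.916 and 0.990.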

How the data were processed

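Bulk RNA was measured in 18 libraries, 3 in each of 6 groups taken from the sample titles. Stranded total-RNA libraries (SMARTer v2-Pico) were read as 75-base single ends. After quality trimming, the authors ran RSEM with Bowtie2 as its aligner on GRCm38, counting by strand, and deposited expected counts per gene as whole numbers without normalization; the submitters' processing notes list mm9. Rows without a symbol in GENCODE mouse release M21 held 0.277% of counts and stayed in the tests.

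Counts were tested with the quasi-likelihood F test of edgeR 4.0.16 under R 4.3.3, after filterByExpr and TMM scaling. A single fit held all 18 libraries with 1 mean for each group, and Benjamini-Hochberg adjustment ran over 16577 genes. Transplanted and cultured cells were compared at an adjusted p below 0.05 and a log2 fold change beyond 1, organs and interactions at the adjusted p alone. The SE is the log2 fold change divided by the square root of F. Log2 CPM for likeness used a prior count of 2. The method was tested on simulated data. Sequences came from GENCODE transcripts and RefSeq promoters. Intervals and figures were made in Python with pandas and matplotlib.

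The members, lists and tests were chosen with earlier results of these data known. Named genes are the 8 members, the 3 genes most like each, called genes of the related lists, and markers. At most 3 called genes of each related list were planned. List genes named beyond these, list genes named at 0, and Hoxaas3 were chosen after their values were seen. Alternatives were DESeq2 1.42.0, other scalings and filters, a replicate block, fits of only the groups compared, other thresholds and each library left out. A result on 1 gene of Hox groups 1 to 5 is not reported here.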

Additional observations from a re-analysis of the deposited data

Results flagged for a closer look

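The log2 fold change after transplantation differed between organs in 10 tests of that difference (edgeR interaction, adjusted p below 0.05), all with the larger log2 fold change in heart fibroblasts. Against tail fibroblasts the log2 fold changes differed by 3.14 for Hoxa6, 3.17 for Hoxa7, 2.92 for Hoxb7 and 3.89 for Hoxb8. Against kidney fibroblasts they differed by 3.43 for Hoxa6, 3.91 for Hoxa7, 2.83 for Hoxb7, 3.34 for Hoxb8, 2.82 for Hoxc6 and 6.40 for Hoxc8. Both families share the HF libraries, in which these genes had at most 88 counts, and Hoxc8 had none in HFc, so that 6.40 depends on the prior count of the fit and is no size. Of these genes Hoxa7 alone passed the filter within the HF libraries. The others entered through the KF and TF libraries, so their number and direction are no support. Without HFs replicate 2, Hoxa7 alone was called against tail, and Hoxa6, Hoxa7 and Hoxc6 against kidney fibroblasts.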

How the results depend on the processing

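Of 193 counts of the 8 genes called under an alternative, 172 were within 1.5 times the reported count. In a fit of only the groups compared, 3 genes were called in HFs against HFc, 1 (Hoxd8) in KFs against KFc, 2 (Hoxa7 and Hoxc6) in the response of KF against TF and 3 in that of HF against KF. Such fits also called 7 in HFs against TFs (all but Hoxa7) and 6 in KFs against TFs (all but Hoxb6 and Hoxb7). They called 8 in KFc against TFc and 6 in the response of HF against TF. DESeq2 called 1 in KFs against KFc, 7 in the response of HF against TF and 1 in that of KF against TF. The last was also 1 with DESeq2 size factors, with library size alone and with a mean of at least 10 counts. At an adjusted p below 0.01, 1 gene was called in the response of HF against TF and 3 in that of HF against KF. With no fold-change limit, 2 were called in TFs against TFc. The cause was not tested. Leaving out each library in turn gave 6 to 8 genes in HFs against HFc, 0 to 1 in KFs against KFc (Hoxc8, without KFs replicate 1), 7 to 8 in KFc against TFc and in KFs against TFs, 1 to 7, 0 to 1 and 3 to 7 in the responses of HF against TF, KF against TF and HF against KF, and no other count in the other comparisons.

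Of 1554 log2 fold changes, 15 of them of related genes in KFs without replicate 3, added after the data were seen, 10 changed sign. With each library left out in turn, KFs against KFc ran from -0.62 to 0.72 for Hoxb6, -0.48 to 0.51 for Hoxb7 and -0.15 to 0.82 for Hoxb8, and the response of KF against TF from -0.30 to 1.03, -0.62 to 0.36 and -0.06 to 0.89 for the same genes. In all 6 the lowest value was without KFs replicate 3 and the highest without KFs replicate 1. In TFs against TFc, Hoxb8 ran from -0.22 to 0.11 (above 0 without TFc or TFs replicate 3) and Hoxc8 from -0.03 to 0.13 (below 0 without TFc replicate 2 or TFs replicate 3).

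Libraries with the same replicate number did not deviate together (r between -0.042 and 0.045), so the numbers were not taken as pairs. With the replicate block 8, 0 and 1 genes were called in HFs, KFs and TFs against culture, 8, 7 and 7 in HFc against TFc, KFc against TFc and HFc against KFc, 8, 8 and 7 in the same order after transplantation, and 4, 0 and 6 in the 3 responses, as without it. Depth limits the heart values, where 7 genes lay near the floor.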
